A study of Rattus norvegicus with 6 samples.

Results

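The genes described here are 35 genes of the extracellular matrix and of fibrosis, measured in the renal cortex of rats. They were chosen by name: fibrillar, basement membrane and type VI collagens, laminins, glycoproteins, small proteoglycans, matricellular proteins, crosslinking enzymes, matrix proteases and their inhibitors, and genes of transforming growth factor beta (TGF-beta) signalling and of contractile cells. Of the 35, 30 were represented on the array by 53 probes matched through their accessions, out of 15645 gene symbols with a probe, and 28 could be tested. No probe was matched to Col4a2, Col5a2, Col6a1, Lox or Nid1, which are not analysed here.

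Male Sprague-Dawley rats, bought at 5 weeks of age, were dosed for 4 weeks with corn oil, the vehicle, or with monuron, a phenylurea herbicide, at 200 mg/kg/day. Each group had 3 animals and 3 arrays, and the rats carried no genetic change that the labels name. The comparison asks which cortical transcripts differ after repeated dosing with the herbicide. RNA from cortex is a mixture of tubules, glomeruli, vessels and interstitium, so fewer cells of a type and less RNA per cell cannot be told apart.

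The extracellular matrix of the kidney has a basement membrane under every tubule and capillary, built of type IV collagen, laminins and nidogen, and a sparse interstitial matrix of fibrillar collagens and proteoglycans made by fibroblasts and pericytes. In kidney fibrosis, TGF-beta signals to these cells, which take on contractile features such as smooth muscle actin and deposit type I and type III collagen and fibronectin. Matrix metalloproteinases cut matrix proteins, and the TIMP proteins inhibit them.

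Signals of 61537 non-control probes were read, of which 60.9% to 70.4% per array passed the scanner software's test of being well above background. The corn oil arrays shared 1 slide and 1 day of scanning, and the monuron arrays another, so an effect of slide or scan day and one of treatment cannot be told apart. All 12 listed proximal tubule genes and all 10 podocyte genes passed the detection filter, among them the endocytic receptor gene Lrp2. So did all 8 listed genes of medulla and papilla and all 15 liver transcripts, so detection alone cannot check the tissue label. Corn oil replicate 3 and monuron replicate 1 had the highest summed level of 15 liver transcripts (124 and 142 times the 75th percentile signal, against 90.4 to 99.1 on the others), so counts are also given without that pair of arrays.

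Levels are given as log2 of the probe's signal over the array's 75th percentile, so that 0 is a probe at that percentile. They can be compared between arrays for 1 probe and not between genes. A difference is the monuron mean minus the corn oil mean on this scale, with its standard error. A gene is called where limma's p-value, adjusted over all 30229 genes tested, is under 0.05. All genes here means gene names and, for probes whose accession matched no name, the accessions themselves. A gene can therefore be counted more than once in the shares given for all genes.

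Among the 28 tested matrix and fibrosis genes none was called higher and none lower with monuron. Of all genes tested, 1.36% were called, 0.949% higher and 0.414% lower. An unadjusted p under 0.05 was reached by 3 of the 28, Col18a1 and Fn1 with higher and Tnc with lower values with monuron, where 17.6% of all genes reached it, 10.9% with higher and 6.73% with lower values. The differences of the 28 ran from -0.62 for Thbs1 to 0.32 for Fbn1, with a median of -0.04 beside 0.02 for all genes tested. 11 of them lay above 0 and 17 below, and 55.3% of all genes lay above 0. The 95% interval stayed within 1.5-fold in both directions for 19 of the 28 (67.9%, against 67.2% of all genes) and within 2-fold for 25 (89.3%, against 87.8%). The 3 whose intervals reached past 2-fold were Mmp9, Thbs1 and Ccn2, and of these the upper bound passed 2-fold for Mmp9 alone. Without corn oil replicate 3 and monuron replicate 1 the median of the 28 was -0.03 and 3 had an unadjusted p under 0.05. In that setting limma called 0 of all 30507 genes (4190 at an unadjusted p under 0.05), so the absence of calls among the 28 carries no information. All these differences are relative to the 75th percentile of each array. With no scaling between arrays the median of all genes was 0.11, the split of calls over all genes went from 287 higher and 125 lower to 366 and 61, and 18 of the 28 lay above 0 with 0 called. With arrays scaled on 8 spike-in controls instead, the median of all genes moved to -0.48, 68.9% of all genes were called, and the 28 had a median of -0.54 with 20 called lower and 0 higher, and all 28 lay below 0, Col18a1 and Fn1 included.

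**Figure D1:**
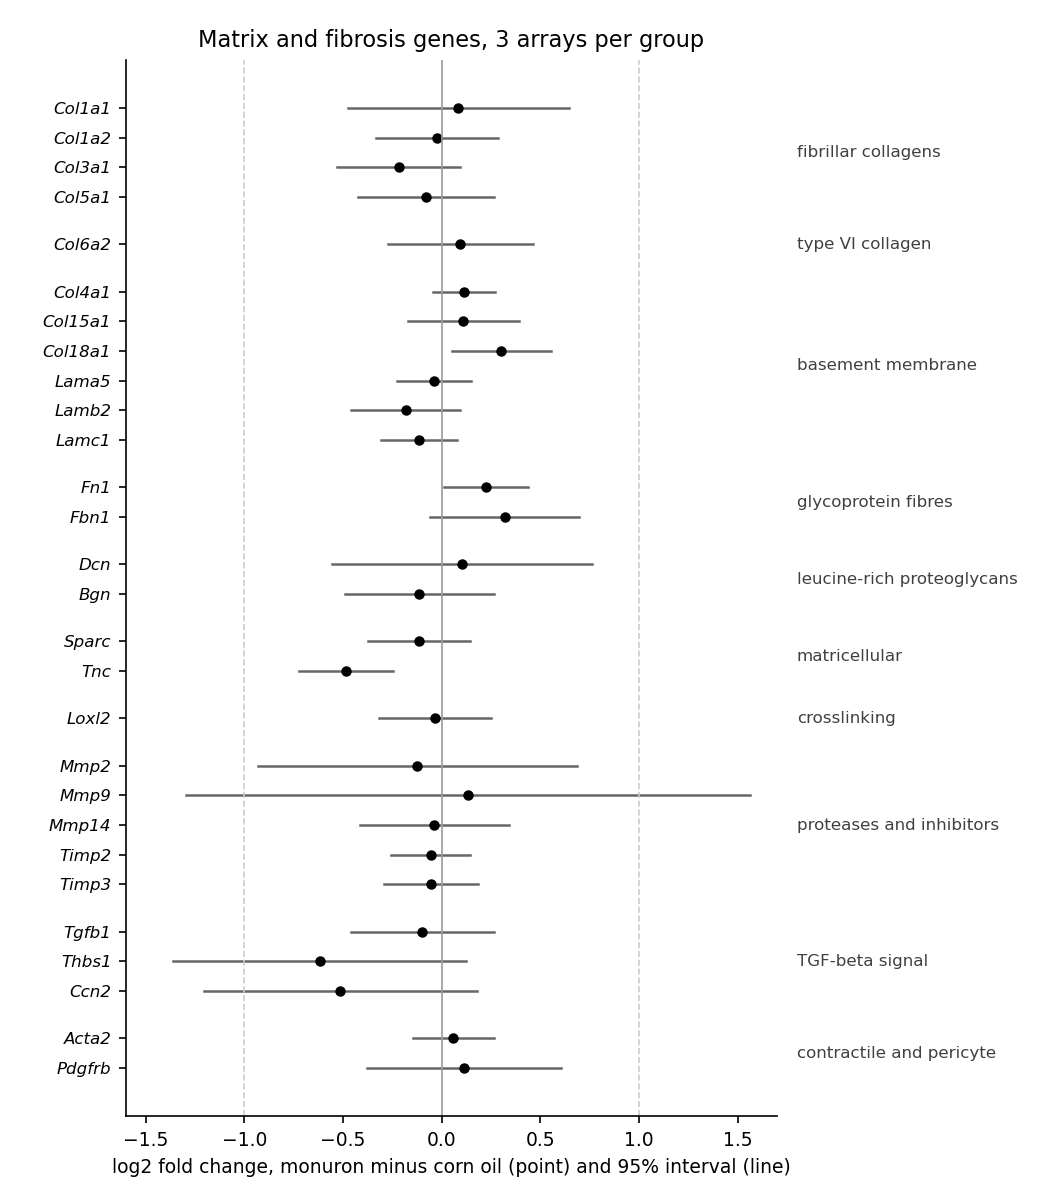
Difference between monuron and corn oil (log2, x axis) for each of the 28 tested genes, grouped by role; points are limma estimates from 3 arrays per group, lines are 95% intervals, and dashed lines mark 2-fold. All intervals include 0 except those of Col18a1 and Fn1, above 0, and Tnc, below 0, and the intervals of Mmp9, Thbs1 and Ccn2 cross a 2-fold line.

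**Figure D2:**
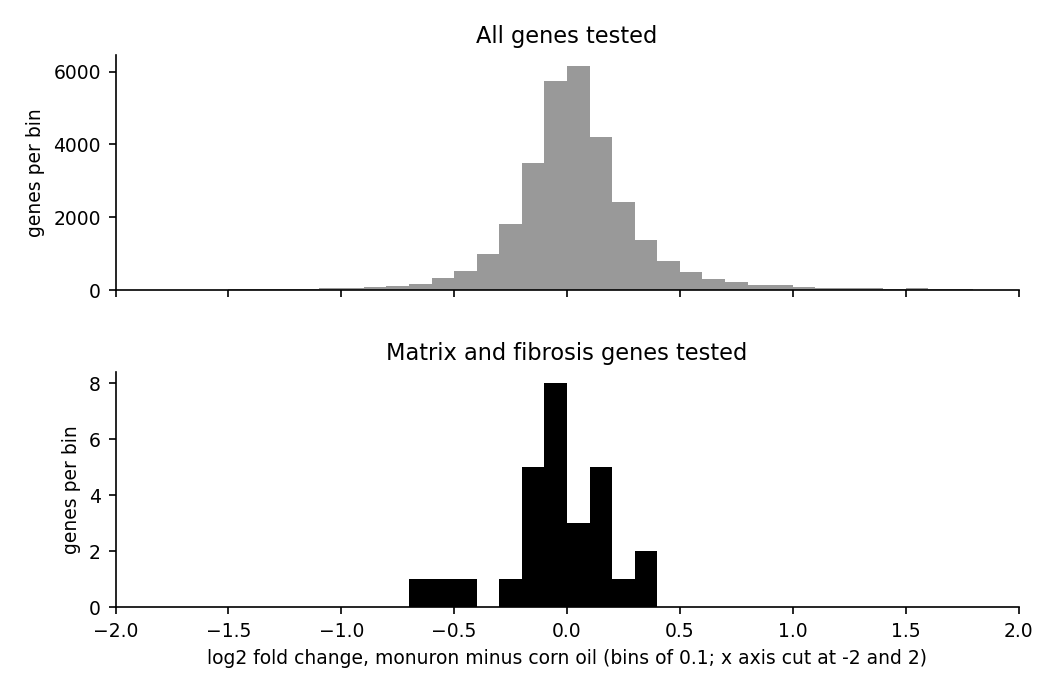
Number of genes per bin of 0.1 in the log2 difference between monuron and corn oil, for all 30229 genes tested (top) and for the 28 matrix and fibrosis genes (bottom). The 28 lie between -0.62 and 0.32, inside the bulk of all genes apart from 3 (Thbs1, Ccn2 and Tnc) below the 5th percentile of all genes, which was -0.39.

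Promoter sequences of the 3 genes with the lowest measured differences, Tnc, Thbs1 and Ccn2, are printed because the last pair are known targets of TGF-beta signalling and of the TEAD transcription factors that act with YAP. They were picked after the values were seen. Each is the 250 bases before the RefSeq start, 5′ to 3′ in the direction of transcription. Capitals mark every match, on either strand, to GGAATG (a core TEAD motif), CAGAC (a Smad-binding core), CCAAT and TATAAA.
Tnc (GRCr8, chr5:82476132-82476381, minus strand): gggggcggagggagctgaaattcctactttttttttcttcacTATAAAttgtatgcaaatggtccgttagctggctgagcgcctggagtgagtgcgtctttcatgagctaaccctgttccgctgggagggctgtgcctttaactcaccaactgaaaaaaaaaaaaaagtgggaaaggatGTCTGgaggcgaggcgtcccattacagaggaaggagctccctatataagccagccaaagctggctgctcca
Thbs1 (GRCr8, chr3:125510000-125510249, plus strand): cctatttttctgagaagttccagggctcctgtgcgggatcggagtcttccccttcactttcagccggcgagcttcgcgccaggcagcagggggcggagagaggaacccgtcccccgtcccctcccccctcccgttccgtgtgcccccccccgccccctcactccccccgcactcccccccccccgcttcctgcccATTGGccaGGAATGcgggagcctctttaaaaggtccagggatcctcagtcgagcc
Ccn2 (GRCr8, chr1:22624615-22624864, minus strand): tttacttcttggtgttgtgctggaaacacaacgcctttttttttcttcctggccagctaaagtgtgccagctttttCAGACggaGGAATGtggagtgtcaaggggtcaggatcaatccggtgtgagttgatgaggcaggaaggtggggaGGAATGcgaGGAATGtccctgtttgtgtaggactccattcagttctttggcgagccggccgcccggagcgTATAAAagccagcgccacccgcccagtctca

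The Ccn2 sequence held GGAATG at 3 places and that of Thbs1 at 1, and Tnc had no match to these letters. CAGAC was found in Ccn2 and, on the opposite strand, in Tnc. The Ccn2 match to TATAAA began 31 bases before the start, while that of Tnc began 208 bases before it. The Tnc sequence also holds tatataa close to the start, which is not an exact match and so is not marked. Promoters were listed for 22 of the 35 genes, of which 6 held GGAATG, those of the genes Sparc, Lamc1, Nid1, Thbs1, Ccn2 and Acta2, and 12.1% of all 33469 listed promoters held it. CAGAC was present in 12 of the 22 and in 42.9% of all, CCAAT in 7 and 34% of all, and TATAAA in 4 and 12.9% of all. These are matches of letters, with no measurement of binding beside them.

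Tgfb1, Thbs1 and Ccn2 stand for the TGF-beta signal. Tgfb1 encodes the growth factor itself, thrombospondin 1 (Thbs1) can release it from its latent complex, and Ccn2, also named Ctgf, is a matricellular protein induced by it. None of the 3 was called, and all 3 differences were below 0. The levels of Ccn2 were 2.32, 2.72 and 1.93 on corn oil replicates 1 to 3 and 1.78, 2.24 and 1.41 on monuron replicates 1 to 3. The groups overlap: monuron replicate 2 lay above corn oil replicate 3, and the spread within each group (means 2.32 ± 0.40 and 1.81 ± 0.41, SD, n = 3) is close to the difference of -0.51 ± 0.28 (95% interval -1.20 to 0.18, adjusted p = 0.402). The Ccn2 difference was -0.31 without corn oil replicate 2 and also without monuron replicate 3.

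For Thbs1 the levels were -4.29, -4.49 and -4.18 on corn oil replicates 1 to 3 and -5.27, -5.29 and -4.24 on monuron replicates 1 to 3. Monuron replicates 1 and 2 lay below every corn oil array, whereas monuron replicate 3 fell inside the corn oil range. The difference was -0.62 ± 0.30 (-1.36 to 0.12, adjusted p = 0.355), and this dim probe passed the background test on 2 of the 3 corn oil arrays and on 3 of 3 with monuron. With normexp background correction the Thbs1 difference was -0.27 ± 0.10 (adjusted p = 0.182), and without monuron replicate 3 it was -0.97 ± 0.11 (adjusted p = 0.0858). Tgfb1 had levels of -2.17, -2.59 and -2.09 with corn oil and -2.27, -2.45 and -2.42 with monuron, overlapping in full, and a difference of -0.10 ± 0.15 (adjusted p = 0.772). Averaged over the 3 genes, each set against its own mean, the offsets were 0.25, 0.18 and 0.18 on the corn oil arrays and -0.29, -0.20 and -0.12 on the monuron arrays. The offsets of the groups did not overlap, although the single genes did. Those of Thbs1 and Ccn2 make up most of the offset, and as a mean over genes chosen with results known it has no test. Such a separation was not particular to this role. Offsets of the matricellular genes ran from 0.02 to 0.24 with corn oil and from -0.16 to -0.13 with monuron. In the other direction, those of Fn1 and Fbn1 ran from -0.21 to -0.03 with corn oil and from 0.07 to 0.23 with monuron.

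The 4 fibrillar collagen genes tested encode chains of the type I (Col1a1, Col1a2), type III (Col3a1) and type V (Col5a1) collagens that form interstitial fibrils. Their differences lay between -0.22 and 0.08. Col1a1 had levels of 0.89, 0.71 and 1.48 on corn oil replicates 1 to 3 and 0.95, 1.02 and 1.36 on monuron replicates 1 to 3. Its highest and its lowest level were both on corn oil arrays, and the difference was 0.08 ± 0.23 (95% interval -0.48 to 0.64, adjusted p = 0.882). The other Col1a1 probes gave 0.07 and 0.04. Col1a2 levels were 3.70, 3.69 and 4.10 with corn oil and 3.83, 3.77 and 3.83 with monuron, with a difference of -0.02 ± 0.13 (-0.33 to 0.29, adjusted p = 0.943), so that a rise of 1.5-fold or more lies outside the interval. The second Col1a2 probe gave -0.01.

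Type III collagen was measured by 1 probe. Col3a1 stood at 1.52, 1.46 and 1.88 on corn oil replicates 1 to 3 and 1.42, 1.34 and 1.44 on monuron replicates 1 to 3. Every monuron array lay below every corn oil array, by a small gap, and corn oil replicate 3 stood above the other corn oil arrays. The difference was -0.22 ± 0.13 (-0.53 to 0.09, adjusted p = 0.429). Groups without overlap were found in 25.7% of all genes tested, 15.5% higher and 10.3% lower with monuron, and in 5 of the 28 (Col4a1, Col18a1 and Fn1 higher, Col3a1 and Tnc lower). Col5a1 differed by -0.08 ± 0.14 (adjusted p = 0.805), and its 2 other probes gave -0.29 and 0.15. Col6a2, a chain of the beaded-filament type VI collagen, differed by 0.10 ± 0.15 (adjusted p = 0.783), with -0.25 for a second, dimmer probe.

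**Figure D3:**
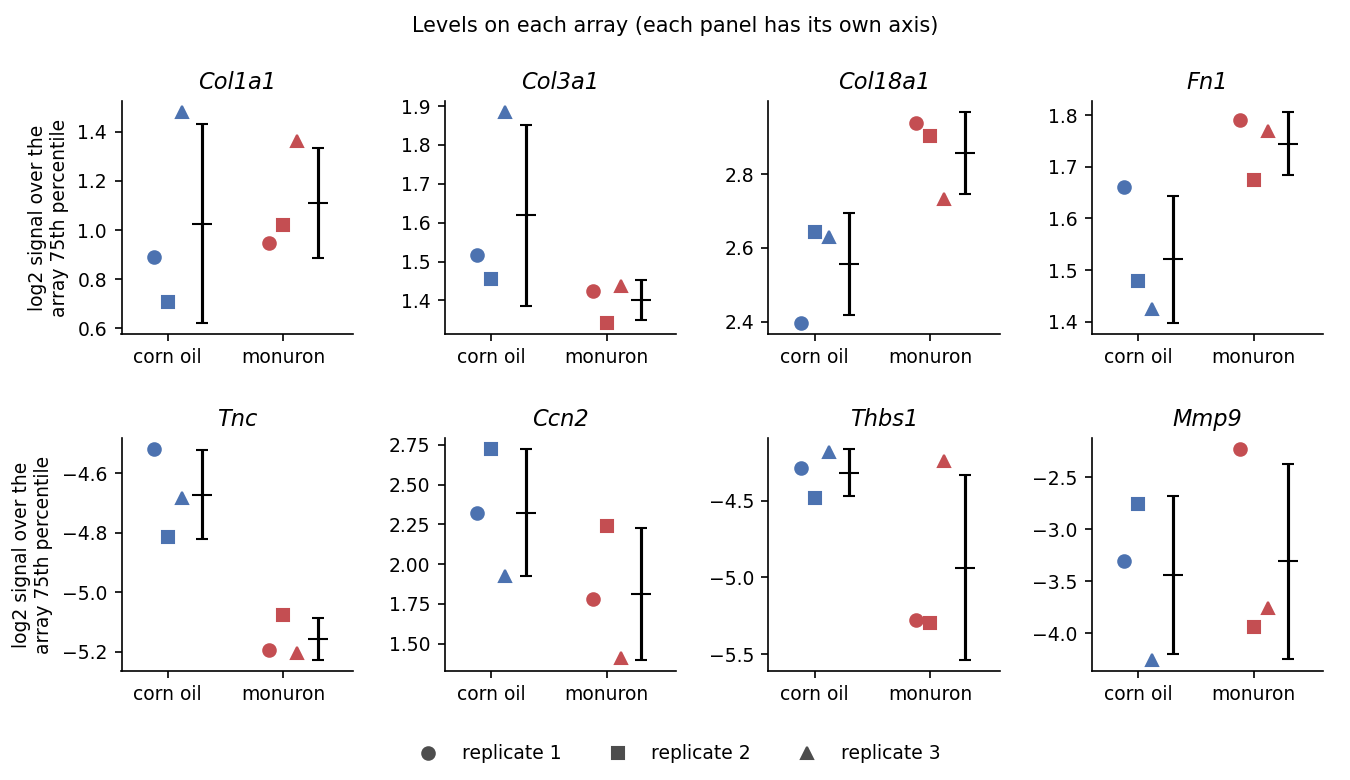
Level on each array (log2 signal over the array's 75th percentile, y axis, a separate scale in each panel) for 8 of the genes, with symbols for the replicates and the group mean ± SD (n = 3) beside them. For Tnc, Col18a1, Fn1 and Col3a1 the groups do not overlap, and for the other 4 they do.

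Much of the spread of the fibrillar collagens came from a single control array. Corn oil replicate 3 held the highest of the 6 levels for 12 of the 28 genes, all of Col1a1, Col1a2, Col3a1 and Col5a1 among them, and its level was above the mean of the other corn oil arrays for 19 of 28 (median 0.16), where 47.9% of all genes were above. The fibrillar collagens were offset from their own means by 0.35 on that array and by -0.17 to 0.05 on the other 5. The same array had the highest summed level of 8 macrophage and leukocyte markers (112, against 62.3 to 77.8 on the others) and of 7 interstitial fibroblast markers (40.3, against 28.1 to 34.5), a list that shares Col1a1, Col1a2, Col3a1 and Dcn with the genes described here. Those shared genes make up most of the fibroblast sum, so it largely repeats their own levels. The part of either cell type in the collagen levels was not tested. Without corn oil replicate 3 the median of the 28 genes was 0.04, 15 lay above 0 and 3 had an unadjusted p under 0.05. In that setting limma called 0 of the 28 and 138 of all 30288 genes (0.456%), with 4755 of all genes at an unadjusted p under 0.05.

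For 6 genes of the basement membrane the median difference was 0.04. Col4a1, a chain of the type IV collagen network, had levels of 4.17, 4.19 and 4.18 on corn oil replicates 1 to 3 and 4.37, 4.25 and 4.26 on monuron replicates 1 to 3. The groups did not overlap, but the gap was small, and the difference was 0.11 ± 0.06 (-0.05 to 0.27, adjusted p = 0.421). The other 3 probes of Col4a1 gave 0.04, -0.01 and -0.10, so the lack of overlap rests on 1 of 4 probes. Col18a1 encodes type XVIII collagen, a heparan sulfate proteoglycan of basement membranes whose end fragment is endostatin. Its levels were 2.40, 2.64 and 2.63 on corn oil replicates 1 to 3 and 2.94, 2.90 and 2.73 on monuron replicates 1 to 3. Every monuron array was above every corn oil array, and the difference of 0.30 ± 0.10 (0.05 to 0.55) was not called (unadjusted p = 0.0257, adjusted p = 0.219). A second Col18a1 probe gave 0.25.

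Col15a1, a collagen of the outer basement membrane zone, differed by 0.11 ± 0.11 (adjusted p = 0.661), with 0.07 for its other probe. The laminin chains, which form the cell-facing network, lay slightly below 0. Lamb2, the beta chain of mature glomerular laminin, had levels of 1.52, 1.77 and 1.46 with corn oil and 1.44, 1.5 and 1.26 with monuron, which overlap, and a difference of -0.18 ± 0.11 (adjusted p = 0.457). The values were -0.04 ± 0.08 for Lama5 (adjusted p = 0.829) and -0.11 ± 0.08 for Lamc1 (adjusted p = 0.5), the alpha and gamma chains that pair with it. Further probes ran from -0.22 to 0.06 for Lama5 and from -0.21 to 0.06 for Lamc1. As a mean over the 6 genes, the basement membrane offsets stayed between -0.05 and 0.04 on all 6 arrays, a narrower range than that of the fibrillar collagens. Of the 6 differences 3 lay above 0 and 3 below, so they partly cancel in that mean.

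**Figure D4:**
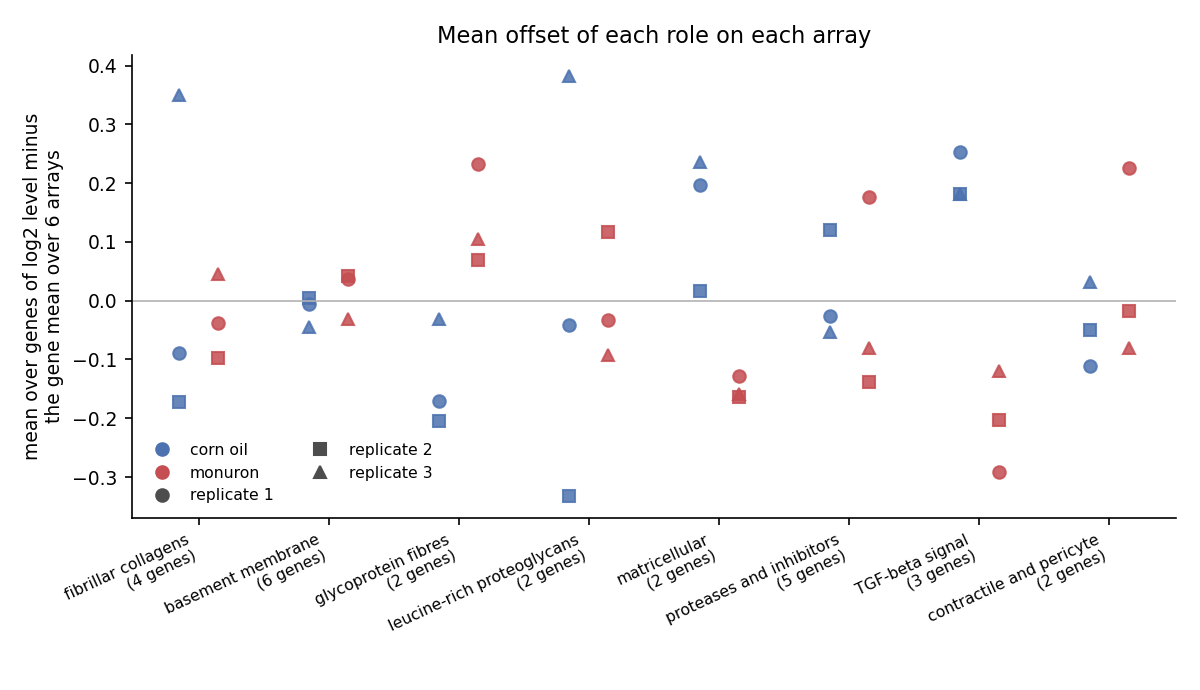
Mean over the tested genes of a role of the log2 level minus the gene's own mean over the 6 arrays (y axis), for each array; colours give the group and symbols the replicate, and roles with 1 tested gene are left out. Fibrillar collagens and leucine-rich proteoglycans are highest on corn oil replicate 3. The mean of the basement membrane genes, whose differences have both signs, stays near 0. The TGF-beta and the matricellular genes are above 0 on the corn oil and below 0 on the monuron arrays, and the glycoprotein fibres the reverse.

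Fibronectin and fibrillin 1 form fibres on which other matrix proteins assemble. Fn1 had levels of 1.66, 1.48 and 1.42 on corn oil replicates 1 to 3 and 1.79, 1.67 and 1.77 on monuron replicates 1 to 3. The lowest monuron array lay just above the highest corn oil array, and the difference was 0.22 ± 0.09 (0.01 to 0.44, unadjusted p = 0.0419, adjusted p = 0.264). Another Fn1 probe gave 0.16. A dim one passed the background test on 1 of the 3 corn oil arrays and on 3 monuron arrays. It entered the test through the monuron arrays alone, and no size of change is given for it. Liver also makes fibronectin for plasma. With corn oil replicate 3 and monuron replicate 1, high in liver transcripts, left out, Fn1 was 0.15 ± 0.11 (adjusted p = 0.589). Of that pair, monuron replicate 1 had the highest Fn1 level of all arrays and corn oil replicate 3 the lowest. A share of liver transcripts in the Fn1 values was not tested. Fbn1 had levels of 0.48, 0.59 and 1.00 with corn oil and 1.16, 0.95 and 0.92 with monuron. Corn oil replicate 3 lay among the monuron arrays, the others below them, and the difference was 0.32 ± 0.15 (-0.06 to 0.70, adjusted p = 0.35), with 0.17 for a second probe.

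Decorin and biglycan are small leucine-rich proteoglycans that bind collagen fibrils and TGF-beta. Dcn varied widely within both groups, with levels of 2.85, 2.39 and 3.31 with corn oil and 2.73, 3.29 and 2.83 with monuron and a difference of 0.10 ± 0.27 (-0.56 to 0.76, adjusted p = 0.877). Bgn differed by -0.11 ± 0.15 (adjusted p = 0.747), whereas a second, dimmer probe gave 0.60 ± 0.35 with 1.68 on monuron replicate 2 and 0.41 and 0.63 on the other monuron arrays. Lumican (Lum) was not well above background on any of the 6 arrays, and neither was periostin (Postn), a matricellular protein of remodelling tissue. These 2 probes give no comparison.

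Tnc encodes tenascin C, a matricellular protein that is sparse in adult tissue and rises in wounds and remodelling. Its levels were -4.52, -4.82 and -4.68 on corn oil replicates 1 to 3 and -5.19, -5.08 and -5.20 on monuron replicates 1 to 3. Every monuron array was below every corn oil array, with means of -4.67 ± 0.15 and -5.16 ± 0.07 (SD, n = 3). The difference of -0.49 ± 0.10 (-0.72 to -0.25) had the smallest p of the 28 (unadjusted p = 0.00254) and was not called (adjusted p = 0.0895). The probe is dim: it passed the background test on 2 of the 3 corn oil and 3 of the 3 monuron arrays, it was not tested where detection on all 6 arrays was required, and with normexp background correction the difference was -0.16 ± 0.08 (adjusted p = 0.316). With limma's trend and robust options the Tnc standard error was 0.19 (adjusted p = 0.23). In that setting Col18a1 (adjusted p = 0.14) and Fn1 (adjusted p = 0.194) had smaller values. A second Tnc probe, which was well above background on 1 of 6 arrays, gave 0.26. Sparc, which binds collagen during its secretion and assembly, had levels of 5.76, 5.70 and 6.0 with corn oil and 5.78, 5.59 and 5.73 with monuron and differed by -0.11 ± 0.11 (adjusted p = 0.619).

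Of the enzymes that work on matrix, Loxl2, a lysyl oxidase that crosslinks collagen, differed by -0.04 ± 0.12 (adjusted p = 0.902). Mmp2 and Mmp9, the gelatinases, were the least reproducible of the 28 genes, and no direction could be read for either. Mmp2 had levels of 0.78, 1.08 and 1.59 with corn oil and 0.55, 1.61 and 0.92 with monuron, so that the lowest and the highest level were both on monuron arrays, and a difference of -0.12 ± 0.33 (-0.93 to 0.68, adjusted p = 0.878). Mmp9 levels were -3.30, -2.76 and -4.26 with corn oil and -2.23, -3.94 and -3.76 with monuron, which span about the same range in both groups, and the difference was 0.13 ± 0.58 (-1.29 to 1.56, adjusted p = 0.931). Monuron replicate 1, with the highest level, is 1 of the arrays high in liver transcripts. Without it and corn oil replicate 3, which had the lowest level, Mmp9 stood at -0.82 (adjusted p = 0.306).

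The membrane protease gene Mmp14, which activates Mmp2 on the cell surface, differed by -0.04 ± 0.15 (adjusted p = 0.926) and its second probe lay near 0. The inhibitor genes were measured with narrow intervals. Timp2 differed by -0.06 ± 0.08 (-0.26 to 0.15, adjusted p = 0.765) and Timp3 by -0.05 ± 0.10 (-0.29 to 0.19, adjusted p = 0.814). With this scaling a change of 1.5-fold either way lies outside the interval for both. With spike-in scaling, where 68.9% of all genes were called, both were called lower. Timp2 stood at -0.56 ± 0.12 (adjusted p = 0.0077) and Timp3 at -0.56 ± 0.12 (adjusted p = 0.0086).

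Acta2, the smooth muscle actin gene used as a marker of myofibroblasts, had levels of -1.25, -1.13 and -1.24 on corn oil replicates 1 to 3 and -1.21, -1.02 and -1.22 on monuron replicates 1 to 3. These lie in a narrow range that the groups share, and the difference was 0.06 ± 0.08 (-0.15 to 0.27, adjusted p = 0.757). Pdgfrb, the platelet-derived growth factor receptor of pericytes and mesangial cells, had levels of 0.29, 0.28 and 0.56 with corn oil and 0.91, 0.24 and 0.32 with monuron. Monuron replicate 1 stood apart from the 5 other arrays, and the difference was 0.11 ± 0.20 (-0.38 to 0.60, adjusted p = 0.812).

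Further genes of the same pathways were taken from 8 lists with 184 tested genes in all. Of these 2 were called higher and 0 lower (1.09%, near the 1.36% of all genes), and 91 lay above 0 and 93 below, with a median of 0.00. Spp1, the osteopontin gene, was 2.15-fold higher (1.66 to 2.79, adjusted p = 0.04), with levels of 2.71, 2.53 and 2.50 with corn oil and 3.48, 3.58 and 4.0 with monuron, and its call was lost under 9 of 20 alternatives (adjusted p from 0.0076 to 0.214), each left-out array included.

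By list, Spp1 was the 1 gene called of 30 other matrix glycoproteins and proteoglycans. No gene was called, in limma's adjusted test, among 12 further collagens (2 at an unadjusted p under 0.05, both lower), 20 collagen processing and crosslinking genes (1 higher and 1 lower), 29 further proteases and inhibitors (5 higher, 2 lower), 44 further TGF-beta pathway genes (4 higher, 2 lower), 18 matrix receptors (2 higher, 2 lower) and 20 other fibroblast and myofibroblast genes (2 higher, 1 lower). Over the 184 tested genes of all the lists together, 29 reached an unadjusted p under 0.05, 16 higher and 13 lower. Of all genes tested 17.6% reached it, 10.9% with higher and 6.73% with lower values. The genes with the smallest p in the lists without a call follow. In the TGF-beta list Tgif1, a repressor that acts on Smad complexes, differed by 0.70 ± 0.11 (adjusted p = 0.052, called under 5 of 20 alternatives) and Fst, the activin-binding follistatin, by 0.42 ± 0.11 (adjusted p = 0.135). Among receptors Itgb4, an integrin chain of hemidesmosomes, stood at 0.54, 0.70 and 0.59 with corn oil and 1.05, 1.05 and 0.94 with monuron, without overlap, and differed by 0.41 ± 0.07 (adjusted p = 0.0753). The other was Gpc3, a glypican, at -0.60 ± 0.20 (adjusted p = 0.213).

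Among the fibroblast and myofibroblast genes Edn1, the endothelin gene, had levels of -4.74, -5.53 and -5.59 with corn oil and -4.18, -3.35 and -3.50 with monuron. Its probe passed the background test on 1 corn oil array of 3 and so entered the test through the monuron arrays alone. It was not tested where detection on all 6 arrays was required, and no size of change is given for it. Des, desmin, differed by -0.27 ± 0.10 (adjusted p = 0.251). In the protease list Mmp16, a membrane metalloproteinase, differed by 0.51 ± 0.13 (adjusted p = 0.143) and Adamts1, a protease of proteoglycans, by 0.61 ± 0.17 (adjusted p = 0.166). For collagens the values were -0.75 ± 0.19 for Col9a2 (adjusted p = 0.135) and -0.35 ± 0.11 for Col26a1 (adjusted p = 0.182). In the processing list P3h2, a prolyl hydroxylase, differed by 0.25 ± 0.10 (adjusted p = 0.281) and Plod1, a lysyl hydroxylase, by -0.15 ± 0.06 (adjusted p = 0.283).

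Of 7 interstitial fibroblast markers and of 11 pericyte, mesangial and smooth muscle markers 0 were called. The share called of all genes was 1.36%, at which lists this short would hold few calls. These lists share genes with those described above and are not separate evidence. The fibroblast list holds Col1a1, Col1a2, Col3a1 and Dcn, and its median is the value of Col1a1. The pericyte list holds Pdgfrb and Acta2. Among 7 interstitial fibroblast markers the median difference was 0.08, with Pdgfra, a receptor of interstitial fibroblasts, at 0.16 ± 0.15 (adjusted p = 0.622), and Fbln1, a fibre-binding glycoprotein, at 0.13 ± 0.19 (adjusted p = 0.767). The summed level ran from 28.1 to 40.3 with corn oil and from 31.1 to 34.5 with monuron. Among 11 pericyte, mesangial and smooth muscle markers the median was 0.03 and the summed level 60.4 to 70.3 with corn oil and 60.2 to 82.5 with monuron. Myh11, smooth muscle myosin, stood at -0.32 ± 0.09 (adjusted p = 0.178) and Tagln, another contractile gene, at 0.08 ± 0.12 (adjusted p = 0.785). At an unadjusted p under 0.05 there were 0 genes in the fibroblast list and 3 in the pericyte list, 1 higher and 2 lower. That threshold was reached by 17.6% of all genes, 10.9% higher and 6.73% lower. Of other cell types, red cell markers were higher with monuron, with 4 of 8 genes called, against 1.36% of all genes. These were Alas2, Klf1 and the near-identical globin genes Hbb and Hbb-b1, called under 10 to 14 of 20 alternatives. Their list had a summed level of 789 to 874 against 328 to 439. Below 0 lay 11 of 12 proximal tubule genes (median -0.25), 8 of 10 podocyte genes (-0.20) and 9 of 10 endothelial genes (-0.13), with 0 called. Above 0 lay 13 of 15 liver transcripts and 6 of 8 genes of medulla and papilla, with 0 called, and 55.3% of all genes. The summed level of 8 macrophage and leukocyte markers was 66.2 to 112 with corn oil and 62.3 to 76.9 with monuron. Of these 7 lay below 0 (median -0.28) and 1 above, and 0 were called, with 2 lower at an unadjusted p under 0.05. What share these cells have in the matrix values was not tested.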

How the data were processed

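Renal cortex RNA of 6 rats was labelled with Cy3 for 1-colour Agilent arrays. Each deposited scanner file gives linear intensity per spot, produced with Agilent Feature Extraction 10.7 according to the submitters' processing notes. The authors' deposited table gives a ratio on a linear scale, which for values of at least 0.1 equals the scanner's processed signal over 1 constant per array within 0.0497%. Its column medians were 0.1085, 0.111, 0.1121, 0.1114, 0.1106 and 0.11.

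Levels are log2 of the processed signal over the array's 75th percentile of non-control probes, without outlier spots. Saturated spots numbered 0. Testing needed the scanner's well-above-background mark on 3 arrays of either group, and the brightest passing probe stood for a gene. Accessions were matched to RefSeq gene names (GRCr8), which named 28206 probes (45.8%), and promoters come from RefSeq on the same assembly. Probes without a name were grouped by accession, and each such accession counts as a gene among all genes tested.

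Two-sided tests used limma 3.58.1 (lmFit, eBayes; R 4.3.3) with Benjamini-Hochberg adjustment over all genes, checked on simulated arrays. The number of arrays limits the precision. Normexp (offset 50) ran on the median spot signal. Genes and lists were chosen with earlier results of these data known. The text names all 35 genes and, of each further list, the called genes or else the 2 with the smallest p. Of the called genes of these lists, 1 is not reported here. Alternatives were other scalings, background corrections, filters, probe rules and tests, the replicate number as a block, and left-out arrays.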

Additional observations from a re-analysis of the deposited data

How the results depend on the processing

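None of the 28 genes was called under any alternative but spike-in scaling (1 to 4 at an unadjusted p under 0.05), and their median lay between -0.10 and 0.05 elsewhere. Scaled on spike-in controls, 20 of the 28 were called lower with a median of -0.54, 20833 of all genes and 118 of the 184 further pathway genes were called, and Col4a1 (-0.39), Col15a1 (-0.40), Fn1 (-0.28), Acta2 (-0.45) and Tagln (-0.43) turned to called falls. That scaling shifted the median of all genes to -0.48, and the cause was not tested, nor was it for the other changes given here. The sign of the difference changed for 7 of the 28 without scaling, for all 11 above 0 with spike-in scaling, and for 6 without corn oil replicate 3. All genes called numbered 412, and 767 with normexp correction, 707 with trend and robust, 86 without a detection filter (45433 genes tested) and 30 to 138 with 1 array left out, fewest without monuron replicate 1. Of the further pathway genes limma called 5 with normexp, 4 with trend and robust, 0 without the filter, 1 with quantile normalization, 1 with median centring and 0 with any array left out (20 to 26 at an unadjusted p under 0.05, and 19 without the filter). Without the 2 arrays highest in liver transcripts limma called 0 of all genes (4190 at an unadjusted p under 0.05) and 0 pathway genes (25).

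Same-numbered arrays did not deviate together over all genes (correlations of -0.08, 0.11 and -0.17 over 30208 genes, against -0.13 to 0.22 for other pairs). No pairing by number was seen, but these values cannot exclude one. With the replicate number as a block the standard error of Ccn2 went from 0.28 to 0.07 (limma adjusted p = 0.152) and that of Tnc from 0.10 to 0.11. With that block limma called 0 genes in all (4557 at an unadjusted p under 0.05), 0 pathway genes (30) and 0 of the 28 (3). Detection on all 6 arrays leaves out Tnc and Thbs1. No slide held both groups, so the slide block was not run. Low signal over background limits Tnc, Thbs1, Lum and Postn.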

Other observations

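Some further matrix and TGF-beta genes were picked after their values were seen. Mmp7, a metalloproteinase of injured tubules, was well above background on monuron replicate 3 alone, at -3.90, against -7.60 to -5.68 on the other 5 arrays, and so was not tested. Tgfb2, a second TGF-beta ligand, stood at -1.54, -3.74 and -3.86 with corn oil and -2.92, -1.51 and -1.92 with monuron and differed by 0.93 ± 0.72 (adjusted p = 0.548), with corn oil replicate 1 at the level of the monuron arrays. Ccn1, a relative of Ccn2 that is also a YAP and TEAD target, had levels of 1.74, 1.75 and 0.45 with corn oil and 1.5, 1.25 and 1.17 with monuron and a difference near 0 (SE 0.37, adjusted p = 0.998), with corn oil replicate 3 the lowest, as it was among the corn oil arrays for Ccn2. Timp1, a TIMP induced in fibrosis, had levels of 1.25, 1.21 and 1.37 with corn oil and 1.44, 1.56 and 1.64 with monuron. All monuron arrays lay above all corn oil arrays, as for 15.5% of all genes tested, and Timp1 differed by 0.27 ± 0.08 (adjusted p = 0.193). Smad3 was not well above background on any array.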
